A study of Mus musculus with 10 samples.

Results

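Semaphorins and their receptors, the plexins and neuropilins, were followed across 4 sorted cell populations from differentiating mouse embryonic stem cells (mESCs). The genes were chosen by name: 20 semaphorin ligands, 9 plexins and 2 neuropilins, 31 genes in all, each found among the 38924 gene identifiers counted in every sample. All cells came from a single mESC line, Foxa2-hCD4, in which a truncated human CD4 surface protein is made from the Foxa2 locus and marks Foxa2-expressing cells for sorting. Poly(A) RNA sequencing was done on 10 samples collected at day 5 of differentiation. Foxa2+ CM (3 samples) and Foxa2- CM (3 samples) are cardiac mesoderm (CM), sorted as Pdgfra+Kdr+ cells with or without hCD4, from cultures given Activin A at 8 ng/ml, BMP4 at 1 ng/ml and VEGF at 5 ng/ml. Flk1+ high (2 samples) came from the same kind of culture and holds the cells with the most Kdr (Flk1) that lack Pdgfra and hCD4, which the study treats as haematopoietic mesoderm. Endoderm (2 samples) was sorted as hCD4+ cells without Pdgfra and Kdr from cultures given Activin A at 75 ng/ml. These cultures were given neither BMP4 nor VEGF. Because the Endoderm cultures had another protocol, the protocol and the cell type cannot be told apart in any comparison with Endoderm. The labels do not say that the samples of a group came from separate cultures, so p-values measure the spread between these samples, which may be technical.

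As background, semaphorins are guidance ligands first known for steering axons. Class 3 members are secreted, classes 4, 5 and 6 span the membrane, and Sema7a is held at the surface by a lipid anchor. Plexins are the signalling receptors. Most class 3 semaphorins reach them through a neuropilin, Nrp1 or Nrp2, which also serves as a co-receptor for VEGF, while Sema3e binds plexin D1 directly. The family is known in the developing heart and vessels for patterning of endothelial cells, migration of neural crest into the outflow tract and growth of the ventricular wall.

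The number of reads counted on genes ranged from 10926284 to 17470126 per sample, and 3 counts, taken as the lowest detectable signal, correspond to between 0.172 and 0.275 CPM (counts scaled to the size of the library). Foxa2 itself, the gene behind the sort, was at 20.01, 16.0 and 3.49 CPM in Foxa2+ CM and at 2.54, 0.872 and 0.902 CPM in Foxa2- CM, so the groups did not overlap, but Foxa2+ CM replicate 3 lay near Foxa2- CM replicate 1. In Endoderm it was at 185 and 183 CPM. Sums of the marker lists followed the labels. The 8 endoderm markers summed to 997 to 1161 CPM in Endoderm and to at most 253 CPM elsewhere. The 10 haemato-endothelial markers summed to 1515 to 1816 CPM in Flk1+ high and to at most 626 CPM elsewhere. Not every marker did so. Cxcr4 had means of 82.7 CPM in Endoderm and 83.9 and 105 CPM in Foxa2+ CM and Foxa2- CM, and Krt8 had 80.0, 77.9 and 76.8 CPM. Etv2 had 90.1 CPM in Flk1+ high and 109 and 103 CPM in Foxa2+ CM and Foxa2- CM. The other markers of these 2 lists had their highest mean in the labelled group. The 8 cardiac mesoderm markers summed to 1062 to 1264 CPM in Foxa2+ CM and to 1313 to 1455 CPM in Foxa2- CM, without overlap. They summed to 742 to 955 CPM in Flk1+ high and 130 to 217 CPM in Endoderm, where Hand2 and Nkx2-5 were under 3 counts. Mesp1 (means 5.73 and 49.3 CPM in Foxa2+ CM and Foxa2- CM), Hand1 (79.2 and 164), Pdgfra, Kdr, Hand2 and Tbx20 had the higher mean in Foxa2- CM. Nkx2-5 (24.7 and 11.4 CPM) and Gata4 had the higher mean in Foxa2+ CM. This list holds Pdgfra and Kdr, and the endoderm list holds Foxa2, so the sort fixed part of these sums. Kdr alone was at 554 and 592 CPM in Flk1+ high, most of the cardiac sum there.

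Markers of other cell types differed between samples. Foxa2- CM replicate 3 had more of the endothelial marker Cdh5 (43.4 CPM) than any other CM sample. Foxa2- CM replicates 1 and 2 had 2.85 and 1.98 CPM, and the 3 Foxa2+ CM samples had 4.53, 7.80 and 13.6 CPM. Pecam1, Tek, Gata1 and Gfi1b also peaked in that sample among the CM samples. Tal1, Gata2 and Runx1 instead peaked in replicate 3 of Foxa2+ CM, at 112, 124 and 164 CPM. For these genes replicate 3 of Foxa2- CM came next, at 101, 95.1 and 144 CPM. Etv2 was lowest in the sample numbered 3 of each CM group, and Lmo2 was higher in every Foxa2+ CM sample. The list of 5 pluripotency markers summed to 50.8 to 56.8 CPM in Foxa2+ CM, to 81.3 to 119 in Foxa2- CM, to 34.5 to 61.1 in Flk1+ high and to 370 to 373 in Endoderm. Nanog, Pou5f1 and Sox2 carried the sum in Endoderm, where Zfp42 and Esrrb had means of 2.15 and 1.71 CPM. Esrrb had the higher mean in Foxa2+ CM, at 5.175 against 2.015 CPM in Foxa2- CM, and Zfp42 had 5.77 and 5.47 CPM. Among 4 neural crest markers, carried almost wholly by Ets1 in CM, the sums were 154 to 180 CPM in Foxa2+ CM, 114 to 121 in Foxa2- CM, 234 to 297 in Flk1+ high and 60.4 to 71.2 in Endoderm, with Foxd3 under 3 counts outside Endoderm. The 5 neural markers summed to 258 to 277 CPM in Endoderm, nearly all of it Otx2 (239 and 249 CPM), and to at most 63.0 CPM elsewhere, with Neurog2 under 3 counts in every sample, and the 5 paraxial mesoderm markers summed to 9.40 to 32.3 CPM over the 10 samples. The part of these markers in the results was not tested, and fewer cells of a type and less RNA per cell cannot be told apart in bulk samples.

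To set the levels of different genes side by side, CPM was divided by the length of all annotated exons of a gene in kb. On this scale, Sema3f and Sema4c were the 2 leading semaphorins in both CM groups and in Flk1+ high. Sema3f, a secreted ligand of neuropilin 2, was at 30.4 ± 1.99, 22.7 ± 1.81, 25.5 ± 7.75 and 23.5 ± 7.69 CPM per kb (SD, n = 3, 3, 2 and 2) in Foxa2+ CM, Foxa2- CM, Endoderm and Flk1+ high. Sema4c, a ligand of plexin B2, had means of 25.8, 22.1, 34.1 and 25.1 CPM per kb in the same order. Together they made up between 35.8% and 56.8% of the summed semaphorin level in the group means. In Endoderm Sema6a ranked between them, with a mean of 28.6 CPM per kb. The summed ligand level was 129 to 139 CPM per kb in Foxa2+ CM, 96.1 to 110 in Foxa2- CM, 156 to 176 in Endoderm and 83.2 to 87.6 in Flk1+ high, and these ranges did not overlap.

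The receptors differed in their mixture. Their summed level ranged from 179 to 204 CPM per kb in Foxa2+ CM, 181 to 212 in Foxa2- CM, 152 to 174 in Endoderm and 208 to 230 in Flk1+ high. Plxna1 and Plxnb2, broadly used plexins, had group means between 30.2 and 38.7 CPM per kb. In CM, Nrp1 stood with them at 38.3 and 34.5 CPM per kb. Endoderm was carried by plexins, with Plxnb1 at 42.9 CPM per kb and both neuropilins together at 8.201, against 56.7, 59.1 and 67.2 in Foxa2+ CM, Foxa2- CM and Flk1+ high. In Flk1+ high, Plxnd1 had a mean of 47.1 and Nrp2 of 39.7 CPM per kb. With the longest transcript in place of all exons, Nrp1 was at 103 and 92.7 CPM per kb in the CM groups, above every other receptor there, so the order of receptors depended on the length used.

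**Figure D1:**
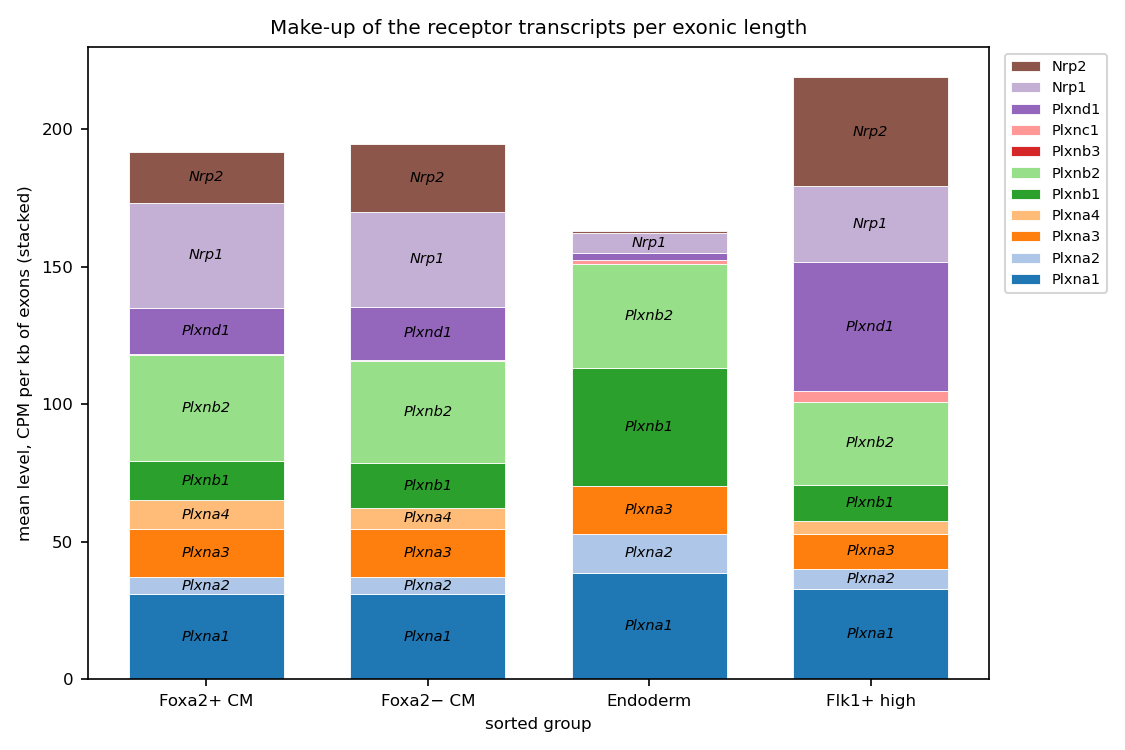
Mean level of each plexin and neuropilin, in CPM per kb of exons, stacked for each sorted group (n = 3, 3, 2 and 2). Nrp1, Nrp2 and Plxnd1 fill much of the bars of CM and Flk1+ high, while Plxnb1 and Plxnb2 with Plxna1 fill most of the Endoderm bar, where the neuropilins together reach 8.201 CPM per kb.

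The 250 bases before the annotated start are shown for 4 members: Sema3a and Sema3e, secreted ligands of the neuropilin route and of plexin D1, and their receptors Nrp1 and Plxnd1, all of which differed between groups by the tests given further on. They were read from RefSeq on GRCm38.p6, on the strand of the gene and 5′ to 3′, and capitals mark CG dinucleotides. The window of Sema3a (ENSMUSG00000028883.11) is chr5:13396534-13396783, + strand, that of Sema3e (ENSMUSG00000063531.6) is chr5:14025026-14025275, + strand, that of Nrp1 (ENSMUSG00000025810.8) is chr8:128358823-128359072, + strand, and that of Plxnd1 (ENSMUSG00000030123.9) is chr6:115995006-115995255, - strand. None overlaps an annotated exon. In GENCODE M21 the windows of Sema3e and Plxnd1 lie just before the gene, and those of Sema3a and Nrp1 lie within an intron of a longer transcript.
Sema3a: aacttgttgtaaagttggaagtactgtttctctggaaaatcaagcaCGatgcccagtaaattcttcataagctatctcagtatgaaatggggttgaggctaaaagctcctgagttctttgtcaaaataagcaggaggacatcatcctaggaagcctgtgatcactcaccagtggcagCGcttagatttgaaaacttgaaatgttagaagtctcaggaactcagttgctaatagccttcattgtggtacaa
Sema3e: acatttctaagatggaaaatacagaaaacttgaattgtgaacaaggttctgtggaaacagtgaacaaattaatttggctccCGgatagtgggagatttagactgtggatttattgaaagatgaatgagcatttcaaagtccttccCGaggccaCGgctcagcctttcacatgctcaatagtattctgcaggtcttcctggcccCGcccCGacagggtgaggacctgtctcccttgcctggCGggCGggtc
Nrp1: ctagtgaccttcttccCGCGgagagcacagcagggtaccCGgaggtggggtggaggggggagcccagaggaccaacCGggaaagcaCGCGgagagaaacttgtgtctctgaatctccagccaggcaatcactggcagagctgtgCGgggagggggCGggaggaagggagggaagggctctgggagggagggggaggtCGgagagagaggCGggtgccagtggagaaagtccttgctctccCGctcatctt
Plxnd1: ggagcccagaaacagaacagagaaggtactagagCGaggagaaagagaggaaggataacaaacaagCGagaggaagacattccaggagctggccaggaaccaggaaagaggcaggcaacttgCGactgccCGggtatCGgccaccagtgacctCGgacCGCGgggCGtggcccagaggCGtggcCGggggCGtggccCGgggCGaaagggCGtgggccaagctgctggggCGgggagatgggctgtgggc
The 4 windows differ in base composition. Sema3a has 2 CG dinucleotides and a GC content of 40.8%, Sema3e has 7 and 48.0%, Nrp1 has 11 and 64.4%, and Plxnd1 has 16 and 64.8%. The median was 6 CG dinucleotides over 32841 mouse promoter windows and 13 over the 37 windows found for 26 of the 31 members. A forkhead motif, TGTTTAC, was sought on both strands because Foxa2 is a forkhead factor. It was in none of the 37 member windows and in 3.17% of all windows. The GATA motif AGATAA was also in none of the 37 and in 9.99% of all. Absence from these windows says only that these letters are not there.

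Setting Foxa2+ CM beside Foxa2- CM asked how mesoderm that expresses Foxa2 differs from mesoderm sorted without it under the same protocol. Most of the members called were ligands. Of the 28 members with enough reads to test, 7 were higher in Foxa2+ CM and 1 was lower at an adjusted p under 0.05, where 6.48% of all 15284 genes tested were called (3.81% higher and 2.66% lower). With a limit of 2-fold added, 3 members were higher and 1 lower, and 3.01% of all genes were called. By role, 7 of 18 ligands tested were called, and so was 1 of 10 receptors. The median log2 fold change was 0.20 over the ligands, -0.01 over the receptors and -0.0014 over all genes tested.

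Sema3a, a secreted repellent that signals through neuropilin 1 and class A plexins, was at 69.1, 84.8 and 68.3 CPM in Foxa2+ CM and 14.9, 16.5 and 22.5 CPM without Foxa2. All 3 samples of the first group lay above all 3 of the second, and the log2 fold change was 2.04 ± 0.17 (SE; adjusted p = 0.00137, edgeR). Sema6a, a membrane ligand of the class A plexins, stood at 89.4, 98.5 and 88.9 CPM against 35.1, 34.7 and 39.1 CPM. It showed the smaller spread, with a log2 fold change of 1.35 ± 0.08 and an adjusted p of 0.000769. Sema5b, a membrane semaphorin with thrombospondin repeats that is known for repelling axons, had 71.1, 66.8 and 52.9 CPM against 35.1, 26.3 and 32.7 CPM, again without overlap (log2 fold change 1.02 ± 0.14, adjusted p = 0.00735).

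Sema6c went the other way. This class 6 relative of Sema6a was at 11.3, 11.8 and 16.1 CPM in Foxa2+ CM and at 27.6, 27.0 and 31 CPM in its Foxa2- counterpart (log2 fold change -1.12 ± 0.16, adjusted p = 0.00733). The mix of class 6 ligands therefore differed between the 2 kinds of CM: per exonic length, Sema6a made up 48.3% to 50.7% of the class in Foxa2+ CM and 23.8% to 25.6% in Foxa2- CM, while Sema6c made up 8.98% to 13.0% and 27.6% to 30.0%. Sema6b and Sema6d, the other members of the class, had log2 fold changes of 0.16 ± 0.10 and 0.05 ± 0.13 and did not pass the test. Sema3a, Sema5b, Sema6a and Sema6c stayed under an adjusted p of 0.05 whichever of the 6 samples was left out.

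Smaller differences were seen for 3 further ligands. Sema4a, best known from immune cells and the retina, was at 35.3, 37.9 and 35.3 CPM in Foxa2+ CM and 26.2, 21.1 and 22.3 CPM in the other group (log2 fold change 0.64 ± 0.10, adjusted p = 0.0114). Sema4b had 56.5, 63.4 and 58.4 CPM against 45.0, 40.9 and 45.7 CPM (0.44 ± 0.08, adjusted p = 0.0153). For Sema3f the values were 169, 155 and 149 CPM against 118, 109 and 128 CPM (0.42 ± 0.08, adjusted p = 0.0236). The groups did not overlap for any of the 3. With 1 sample left out, the log2 fold change stayed between 0.58 and 0.72 for Sema4a, 0.38 and 0.48 for Sema4b, and 0.36 and 0.49 for Sema3f, but the calls were lost in several of these fits: without Foxa2+ CM replicate 2 the adjusted p was 0.0792 for Sema4a, 0.101 for Sema4b and 0.101 for Sema3f, and without Foxa2- CM replicate 2 it was 0.0639, 0.0757 and 0.0917. Without Foxa2- CM replicate 1 it was 0.0672 for Sema4b and 0.0978 for Sema3f, and without Foxa2+ CM replicate 1 it was 0.0776 for Sema3f.

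Plxna4, a class A plexin that pairs with neuropilin 1 and also binds Sema6a directly, was the receptor called. It had 121, 161 and 168 CPM in Foxa2+ CM against 107, 107 and 104 CPM, with a log2 fold change of 0.50 ± 0.11 (adjusted p = 0.0377). Replicate 1 of Foxa2+ CM lay nearest to the other group. With 1 sample left out the log2 fold change ran from 0.42 to 0.63, and the adjusted p was 0.197 without Foxa2+ CM replicate 2, 0.079 without Foxa2+ CM replicate 3, 0.131 without Foxa2- CM replicate 1 and 0.152 without Foxa2- CM replicate 2. The other class A plexins had nearly equal means in the 2 groups, at 279 and 279 CPM for Plxna1, 108 and 111 CPM for Plxna2, and 137 and 137 CPM for Plxna3.

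The groups were also apart for 4 members without a call in the reported fit. Sema4c was at 117 to 121 CPM in Foxa2+ CM and 99.0 to 105 CPM in the other group (log2 fold change 0.23 ± 0.06, adjusted p = 0.0524). Plxnb1, the receptor of Sema4d, had 132 to 139 CPM against 147 to 162 CPM (-0.21 ± 0.06, adjusted p = 0.0862), and Nrp2 had 182 to 260 CPM against 261 to 314 CPM (-0.41 ± 0.13, adjusted p = 0.12). Sema4g, a further membrane ligand, had 18.2 to 22.0 CPM against 22.5 to 26.4 CPM (-0.30 ± 0.11, adjusted p = 0.202). In 7 other settings of the fit, Sema4c and Nrp2 were called in 3, Plxnb1 in 2 and Sema4g in 0. For the first 3 genes, DESeq2 and the replicate number as a block were among the settings with a call. The receptors called in CM thus depended on the method. None of these 4 overlapped between the groups, and with the 8 called they make 12 of the 28 members tested, where 24.0% of all genes tested did not overlap. Nrp1 overlapped, with 362 to 386 CPM against 297 to 366 CPM (0.15 ± 0.09, adjusted p = 0.453).

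Plxnd1, the endothelial plexin, was at 98.5, 125 and 145 CPM in Foxa2+ CM and 117, 122 and 183 CPM in the other group (log2 fold change -0.20 ± 0.20, adjusted p = 0.731). The sample with 183 CPM is the one with the high Cdh5, and without it the log2 fold change was 0.0559 (adjusted p = 0.861). Its ligand Sema3e followed the same samples, at 8.25, 10.9 and 13.97 CPM against 12.4, 12.6 and 21.3 CPM (-0.48 ± 0.27, adjusted p = 0.415). Sema3c, Sema4f and Plxnb3 had too few reads to be tested in CM. Leaving out both CM samples numbered 3, chosen after seeing the data, gave 12 members called, 10 higher and 2 lower, but 17.4% of all genes were then called, whereas fitting all 10 samples in 1 model left 2 members, Sema3a and Sema6a, with 1.78% of all genes called.

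**Figure D2:**
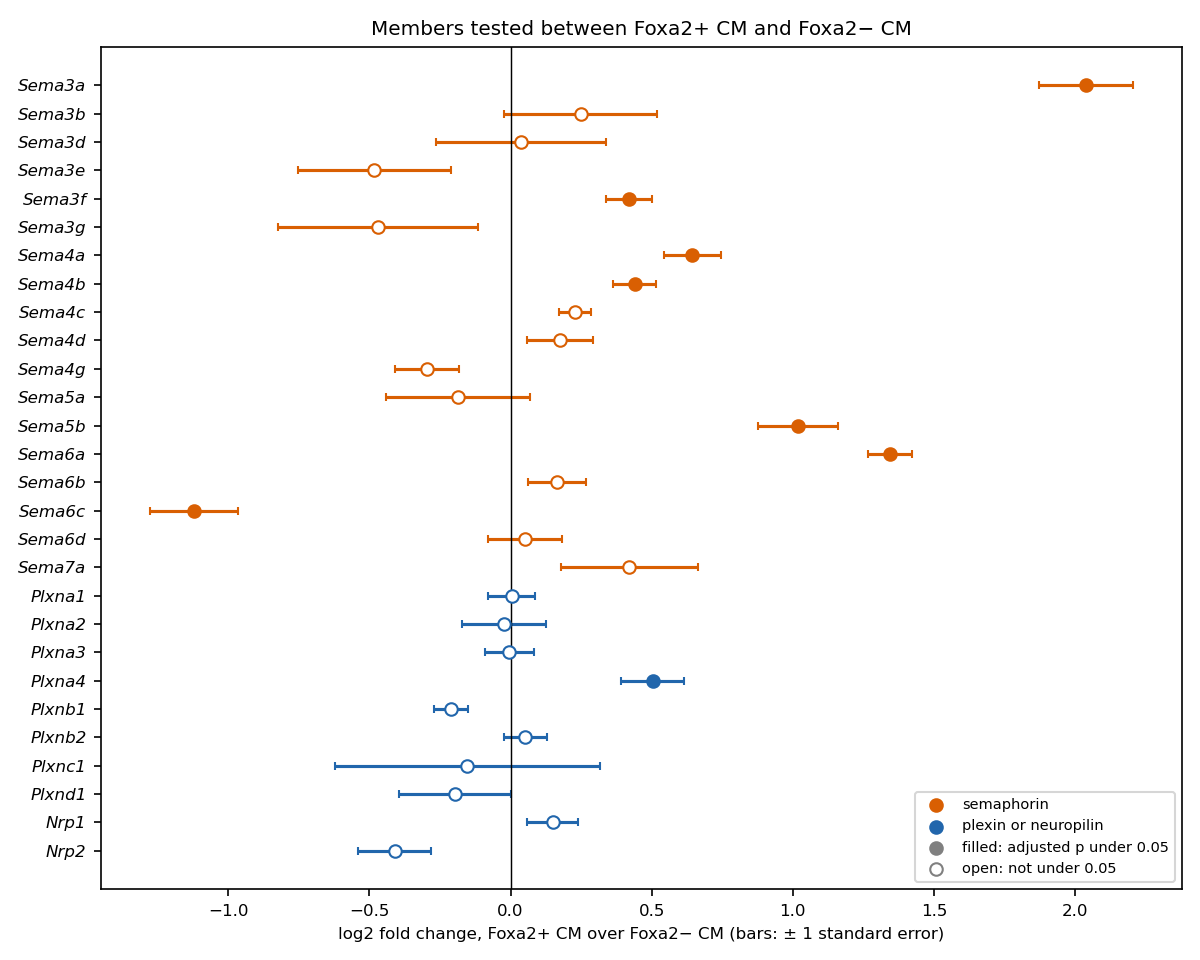
Log2 fold change of each of the 28 members tested, Foxa2+ CM over Foxa2- CM, with 1 standard error to each side (n = 3 and 3). Filled points passed an adjusted p of 0.05: 6 ligands and Plxna4 lie to the right of 0, led by Sema3a at 2.04, and Sema6c lies to the left at -1.12.

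Endoderm and CM had different sets of ligands. Against Foxa2+ CM, 10 of 30 members tested were higher in Endoderm and 8 were lower, where 35.0% of all 16180 genes were called (18.3% higher and 16.7% lower). Against Foxa2- CM the counts were 10 and 7, with 30.1% of all genes called (16.1% higher and 14.0% lower). Members with at least a 2-fold difference from both CM groups numbered 8 higher and 7 lower, where 18.7% and 17.0% of all genes passed that limit against Foxa2+ CM and Foxa2- CM. These comparisons share the Endoderm samples, so each is given by its own values.

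Of the 4 class 6 ligands, 3 were higher in Endoderm. Sema6d, which signals through plexin A1 and is known for its part in forming the cardiac chambers, was at 141 and 254 CPM in Endoderm and between 15.0 and 18.4 CPM in the 6 CM samples (log2 fold change 3.52 ± 0.41 against Foxa2+ CM, adjusted p = 0.000226; 3.57 ± 0.41 against Foxa2- CM, adjusted p = 0.00025). Sema6a was at 292 and 210 CPM, above the 88.9 to 98.5 CPM of Foxa2+ CM (1.44 ± 0.17, adjusted p = 0.000233) and further above the 34.7 to 39.1 CPM of Foxa2- CM (2.79 ± 0.18, adjusted p = 9.27e-06). Foxa2+ CM thus lay between Foxa2- CM and Endoderm for Sema6a, but not for Sema6c. Sema6c was at 58.0 and 73.9 CPM in Endoderm, with log2 fold changes of 2.33 ± 0.30 over Foxa2+ CM and 1.21 ± 0.30 over Foxa2- CM, where Foxa2- CM stood nearer (adjusted p = 0.000402 and 0.0134). The second of these calls was lost without Endoderm replicate 2 or Foxa2- CM replicate 1, with an adjusted p of up to 0.101.

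The fourth class 6 ligand was lower. Sema6b was at 9.12 and 8.44 CPM in Endoderm against 21.9 to 28.6 CPM over the 6 CM samples, with log2 fold changes of -1.61 ± 0.14 and -1.45 ± 0.14 (adjusted p = 3.98e-05 and 8.12e-05). The class as a whole summed to 58.7 to 62.5 CPM per kb in Endoderm and to 15.4 to 22.1 in CM.

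Among secreted ligands, Sema3e and Sema3a showed opposite patterns. Sema3e was at 77.4 and 57.3 CPM in Endoderm and at 8.25 to 21.3 CPM over the CM samples, with log2 fold changes of 2.60 ± 0.31 and 2.12 ± 0.30 (adjusted p = 0.000233 and 0.000775). Sema3a was at only 1.40 and 8.27 CPM in Endoderm, a log2 fold change of -3.91 ± 0.51 from Foxa2+ CM and -1.87 ± 0.49 from Foxa2- CM (adjusted p = 0.000408 and 0.0177). The value against Foxa2- CM was -1.15 without Endoderm replicate 1 and -3.69 without Endoderm replicate 2, and the call was lost when only the 2 groups were fitted or both CM samples numbered 3 were left out (adjusted p of up to 0.0561). The Endoderm samples differed from each other for Sema3a, yet both lay below the lowest CM sample, at 14.9 CPM.

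Sema3c, a ligand known for its part in septation of the cardiac outflow tract, was hardly read in CM. It had 91 counts over the 2 Endoderm samples and 5 counts over the 3 samples of each CM group, which gives normalized ratios of 37.7 over Foxa2+ CM (95% exact interval 15.6 to 119) and 35.6 over Foxa2- CM (14.7 to 112), intervals that cover counting error only. In Endoderm it was at 4.19 and 3.84 CPM, against at most 0.169 CPM in CM, and its fitted tests passed with adjusted p of 0.000104 and 0.000128.

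Sema4a was again on the low side, at 2.98 and 3.76 CPM in Endoderm, with log2 fold changes of -3.42 ± 0.20 against Foxa2+ CM and -2.78 ± 0.19 against Foxa2- CM (adjusted p = 5.04e-06 and 1.44e-05). Sema5b was at 11.5 and 33.3 CPM and differed from Foxa2+ CM (-1.50 ± 0.38, adjusted p = 0.0138, and -2.48 to -0.97 with 1 sample left out) but did not pass against Foxa2- CM (-0.48 ± 0.37, adjusted p = 0.362), a value that became 0.0555 without Endoderm replicate 1. Of the remaining ligands, Sema4c was higher than both CM groups by under 2-fold, and its call against Foxa2+ CM was lost without Endoderm replicate 2 (adjusted p = 0.107). Sema4d passed against Foxa2- CM (0.51, adjusted p = 0.048), but held in only 3 of the 10 fits that left out 1 sample (adjusted p of up to 0.236) and in 4 of 7 other settings. Sema4f passed against Foxa2+ CM (1.93, adjusted p = 0.0119), a call lost without Endoderm replicate 1 (adjusted p = 0.0997) and with DESeq2 (adjusted p = 0.0529). Sema3b, Sema3d, Sema3f, Sema3g, Sema4b, Sema4g, Sema5a and Sema7a passed against neither.

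**Figure D3:**
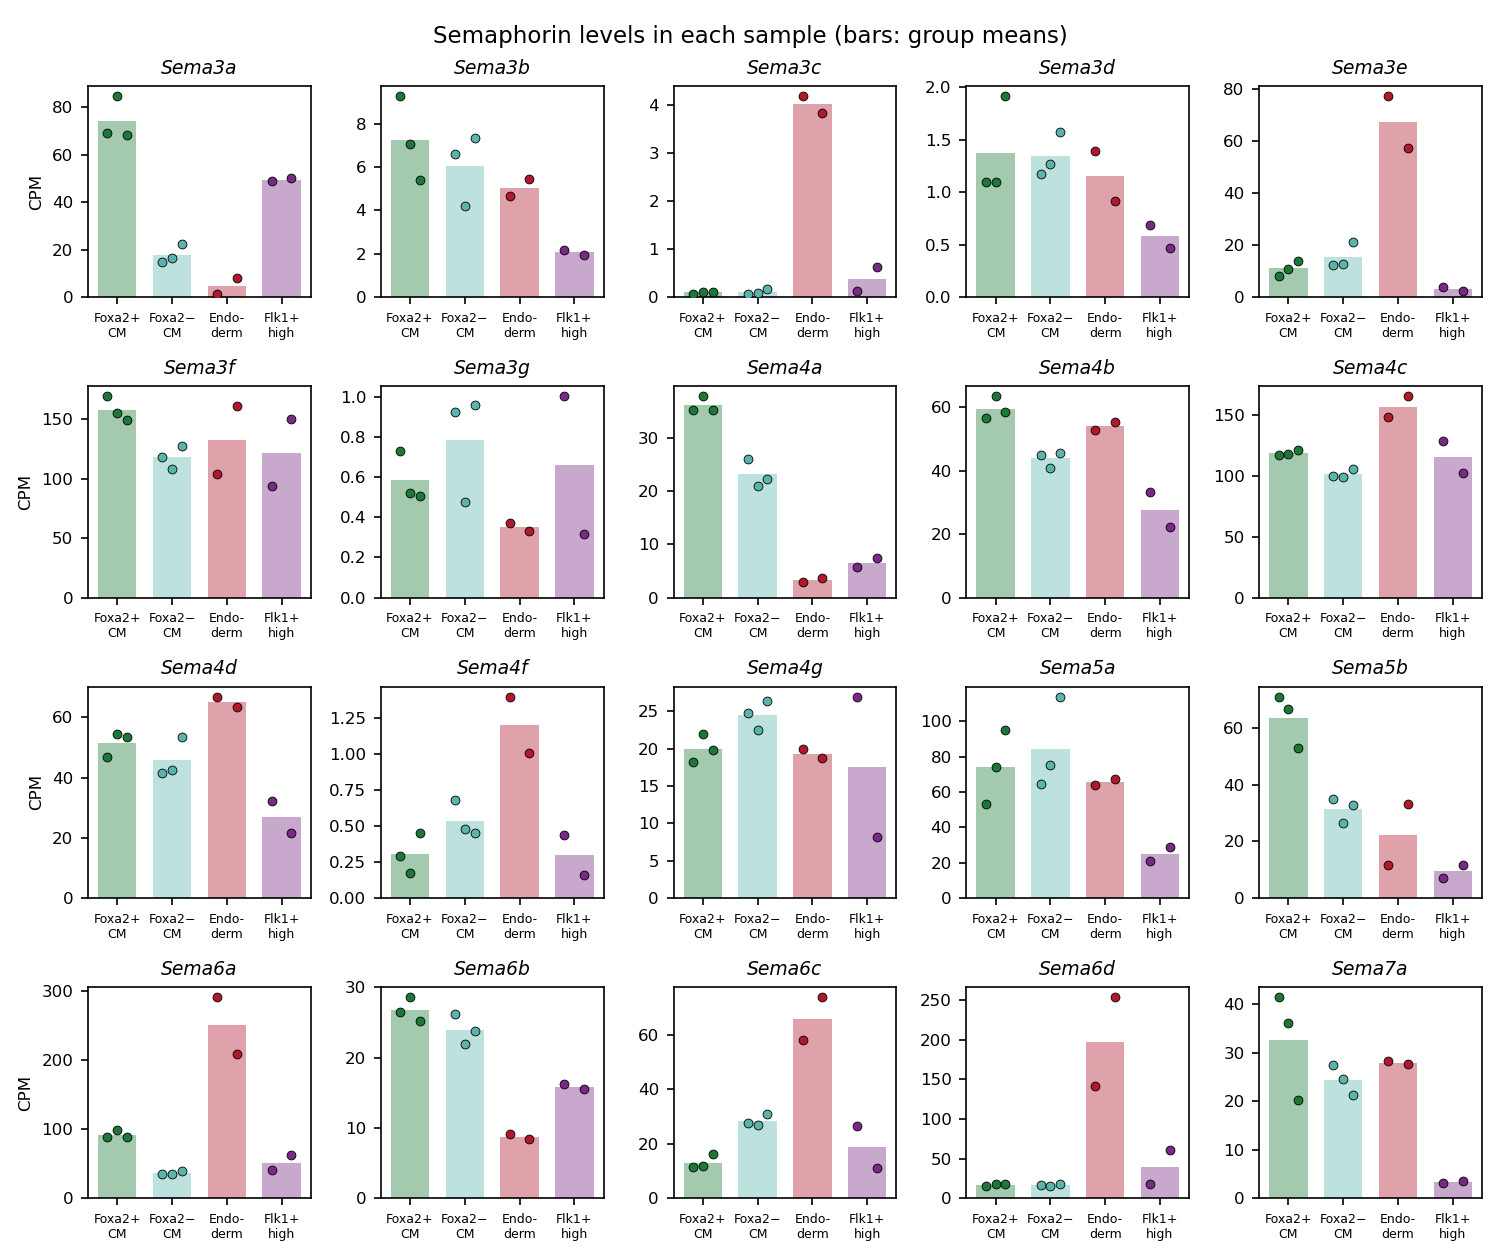
CPM of the 20 semaphorins in each of the 10 samples (points), with group means as bars and a separate vertical axis for each gene. Sema3e, Sema6a, Sema6c and Sema6d are high in Endoderm, Sema3a is high in Foxa2+ CM and Flk1+ high, and Sema7a and Sema5a are low in Flk1+ high.

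Among the receptors, both neuropilins were lower in Endoderm. Nrp2 was at 8.75 and 10.4 CPM in Endoderm and at 182 to 314 CPM over the CM samples (log2 fold change -4.51 ± 0.21 against Foxa2+ CM, adjusted p = 1.72e-06; -4.92 ± 0.21 against Foxa2- CM, adjusted p = 1.44e-06). Nrp1 was at 34.2 and 111 CPM, with the 2 Endoderm samples well apart, and lay below every CM sample, the lowest of which had 297 CPM (-2.37 ± 0.38 and -2.22 ± 0.37, adjusted p = 0.0012 and 0.00197). Without Endoderm replicate 1 these values were -1.80 and -1.64, and without Endoderm replicate 2 they were -3.48 and -3.32, all called. Nrp1 reached 0.70 counts per exonic base and 1.88 per base of its longest transcript in its deepest sample. Plxnb2 reached 0.727, Nrp2 0.711 and Plxnd1 0.676 counts per exonic base, Nrp2 and Plxnd1 in Flk1+ high samples. Since duplicate reads had been removed, such densities may be held down. Their part in the results, those of Flk1+ high included, was not tested.

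Plxna4 had 2.79 and 5.77 CPM in Endoderm, against 104 to 168 CPM in CM. The log2 fold changes were -5.11 ± 0.35 and -4.61 ± 0.35 (adjusted p = 1.16e-05 and 2.39e-05). Plxnd1 was at 14.7 and 22.6 CPM, with log2 fold changes of -2.71 ± 0.29 against Foxa2+ CM and -2.91 ± 0.29 against Foxa2- CM (adjusted p = 0.000126 and 0.000101). Both plexins were thus lower than in every CM sample.

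The plexins Plxnb1, Plxna2 and Plxnc1 were higher in Endoderm. Plxnb1, the receptor of Sema4d, was at 399 and 423 CPM against 132 to 162 CPM in CM (1.61 ± 0.20 and 1.39 ± 0.20, adjusted p = 0.000301 and 0.000756). It made up 53.1% of the class B plexin level in Endoderm per exonic length and 26.7% and 30.4% in Foxa2+ CM and Foxa2- CM. Plxna2, a receptor of class 6 ligands, was at 244 and 238 CPM against 83.8 to 125 CPM (1.15 ± 0.27 and 1.13 ± 0.27, adjusted p = 0.00842 and 0.0112), though without Endoderm replicate 1 the adjusted p rose to 0.0501 and 0.0594.

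Plxnc1, the receptor of Sema7a, was low throughout but higher in Endoderm, at 8.28 and 12.7 CPM, than in the CM samples, at 1.27 to 4.002 CPM (2.34 ± 0.51 and 2.19 ± 0.51, adjusted p = 0.00657 and 0.0103). Without Endoderm replicate 2 its adjusted p was 0.0566 and 0.0833. Plxna1, Plxna3 and Plxnb2 passed in neither comparison. Plxnb3 had between 0 and 10 counts in every one of the 10 samples and was not tested anywhere.

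**Figure D4:**
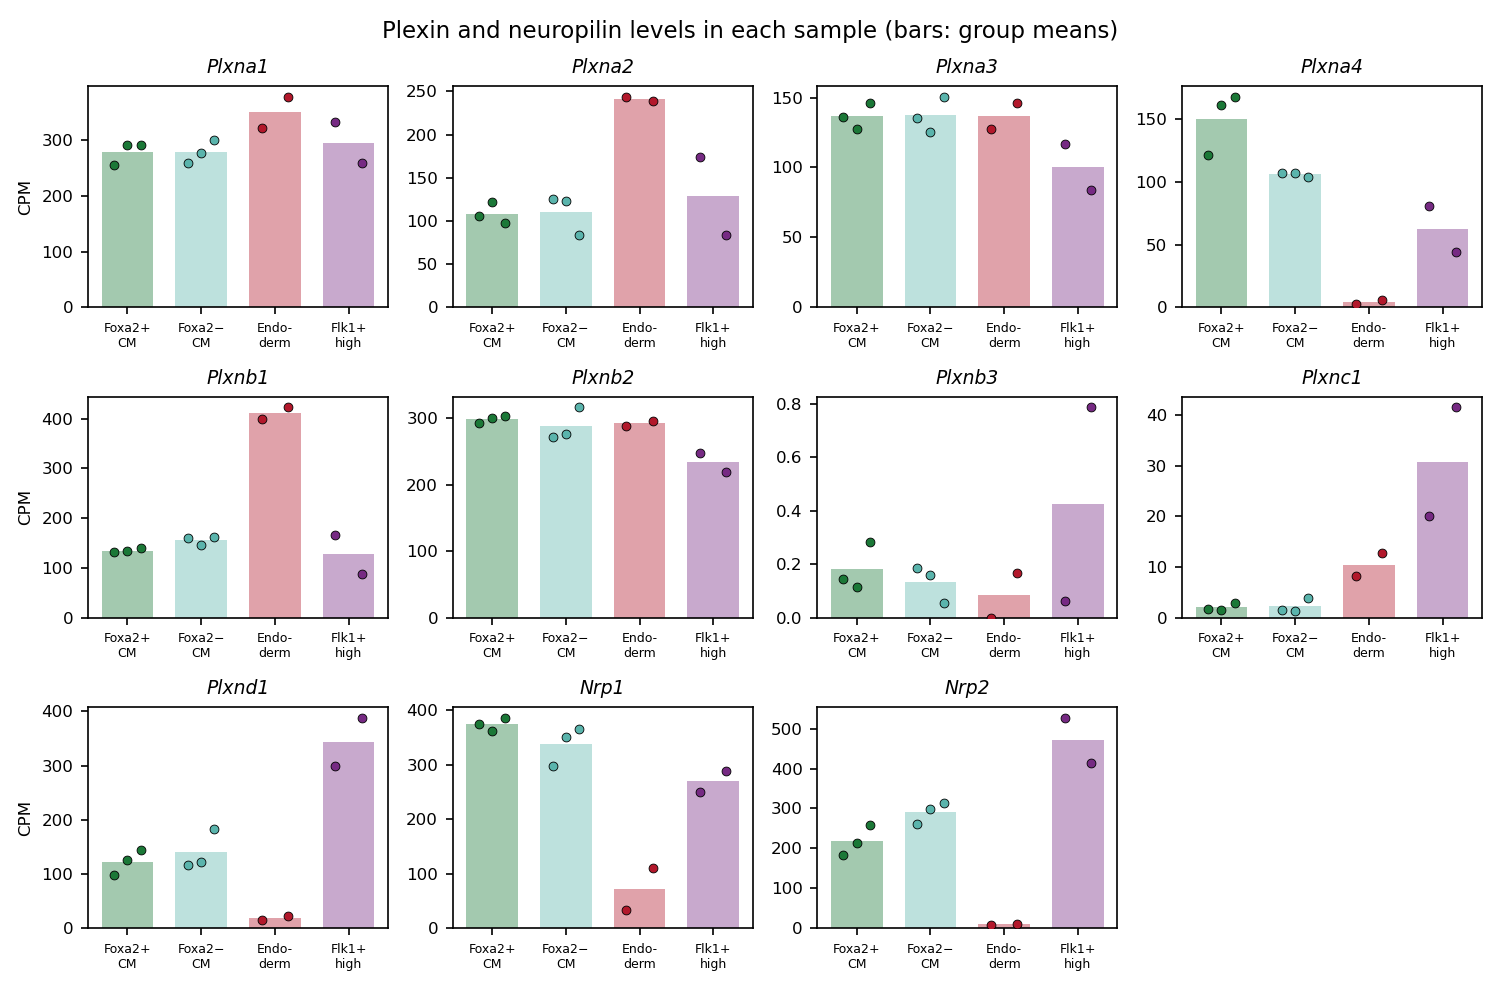
CPM of the 9 plexins and 2 neuropilins in each of the 10 samples (points), with group means as bars and a separate vertical axis for each gene. Plxna4, Plxnd1, Nrp1 and Nrp2 are low in both Endoderm samples, Plxnb1 and Plxna2 are high there, and Plxnc1, Plxnd1 and Nrp2 are high in Flk1+ high.

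The ligands that differed between Flk1+ high and CM mostly had less RNA in Flk1+ high. Receptors went both ways, and Plxnc1, Plxnd1 and Nrp2 were those with more. Against Foxa2+ CM, 3 of 30 members tested were higher and 13 lower, with 22.8% of all genes called (11.6% higher and 11.2% lower). Against Foxa2- CM, 4 were higher and 11 lower, with 21.6% of all genes called (11.3% higher and 10.3% lower). At least 2-fold from both CM groups, 2 members were higher and 6 lower, and 11.4% and 11.6% of all genes passed that limit against Foxa2+ CM and Foxa2- CM. Against Foxa2+ CM, 10 of 20 ligands tested were called, all lower, and 6 of 10 receptors, 3 higher and 3 lower. Against Foxa2- CM, 10 of 20 ligands were called, 1 higher and 9 lower, and 5 of 10 receptors, 3 higher and 2 lower. The median log2 fold changes of the ligands were -0.80 and -0.63 and those of the receptors 0.0012 and -0.10, where those over all genes tested were 0.03 and 0.02.

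Sema7a, a lipid-anchored ligand known from immune and nerve cells, was at 3.07 and 3.54 CPM in Flk1+ high and at 20.3 to 41.4 CPM in CM (log2 fold change -3.30 ± 0.31 against Foxa2+ CM, adjusted p = 0.000236; -2.89 ± 0.31 against Foxa2- CM, adjusted p = 0.000486). Sema4a was at 5.70 and 7.47 CPM, also below all CM samples (-2.46 ± 0.18 and -1.82 ± 0.18, adjusted p = 8.01e-05 and 0.000288). Sema3e was at 3.89 and 2.36 CPM (-1.81 ± 0.36 and -2.29 ± 0.36, adjusted p = 0.00668 and 0.00237). All 3 lay below every CM sample.

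The class 5 ligands were low as well. Sema5b was at 7.15 and 11.6 CPM, with log2 fold changes of -2.77 ± 0.41 and -1.76 ± 0.40 (adjusted p = 0.00178 and 0.0135), and the second of these was lost without Flk1+ high replicate 1 (adjusted p = 0.0695). Sema5a was at 21.2 and 29.1 CPM against 53.2 to 114 CPM in CM (-1.57 ± 0.30 and -1.75 ± 0.30, adjusted p = 0.00561 and 0.00356). Sema3b was at 2.19 and 1.97 CPM against 4.20 to 9.28 CPM (-1.79 ± 0.33 and -1.54 ± 0.33, adjusted p = 0.0048 and 0.00978). Sema4b, Sema4d and Sema6b were lower than both CM groups too, by log2 fold changes between -0.59 and -1.10. Against Foxa2- CM, all 3 calls were lost when only the 2 groups were fitted (adjusted p = 0.0671, 0.0651 and 0.0596), and that of Sema4d also without Flk1+ high replicate 2 (adjusted p = 0.0846).

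Sema3a was not among the lower ligands, which numbered 10 of 20 tested against Foxa2+ CM and 9 of 20 against Foxa2- CM. At 48.8 and 50.4 CPM, Flk1+ high lay between the CM groups, higher than Foxa2- CM (1.46 ± 0.41, adjusted p = 0.0305) and with a log2 fold change of -0.58 ± 0.41 from Foxa2+ CM that did not pass (adjusted p = 0.349). The call against Foxa2- CM was lost without any of Foxa2+ CM replicate 1 or 2, Foxa2- CM replicate 1 or 2, or either Flk1+ high sample, with an adjusted p of up to 0.113. For Sema6a, Flk1+ high also lay between the CM groups, at 41.3 and 62.1 CPM. It was lower than Foxa2+ CM (-0.84, adjusted p = 0.00981) and had no call against Foxa2- CM. Sema6d was at 18.7 and 60.4 CPM in the 2 samples, and its log2 fold changes of 1.19 ± 0.41 and 1.24 ± 0.41 did not pass (adjusted p = 0.0644 and 0.0589). With Flk1+ high replicate 1 left out they were 1.81 and 1.86 (adjusted p = 0.00206 and 0.00183), and with replicate 2 left out they were 0.0826 and 0.14.

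The receptors that were higher in Flk1+ high are ones known from vessels and blood cells. Plxnd1 was at 299 and 388 CPM, above all CM samples (1.48 ± 0.24 and 1.29 ± 0.23, adjusted p = 0.00239 and 0.00477). Plxnc1, known from leukocytes, was at 19.99 and 41.5 CPM against 1.27 to 4.002 CPM (3.89 ± 0.51 and 3.74 ± 0.51, adjusted p = 0.00106 and 0.00123). Nrp2 was at 528 and 413 CPM against 182 to 314 CPM (1.10 ± 0.15 and 0.69 ± 0.15, adjusted p = 0.00124 and 0.0112), with the second call lost without Foxa2- CM replicate 1 or Flk1+ high replicate 1 (adjusted p of up to 0.066).

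Nrp1 did not share the direction of Nrp2 in Flk1+ high. It was at 250 and 289 CPM there, below all CM samples, and passed the test against neither group. As a share of the 2 neuropilins per exonic length, Nrp1 was 64.3% to 71.3% in Foxa2+ CM, 57.9% to 58.7% in Foxa2- CM, 82.5% to 92.8% in Endoderm and 36.4% to 45.9% in Flk1+ high, ranges that did not overlap. Plxna4 was at 80.8 and 44.4 CPM, lower than Foxa2+ CM (-1.26 ± 0.26, adjusted p = 0.00861) and without a call against Foxa2- CM (-0.76 ± 0.26, adjusted p = 0.0664). Plxna3 and Plxnb2 were lower than both CM groups by 1.24- to 1.37-fold. Both calls of Plxnb2 were lost without Flk1+ high replicate 2, and that against Foxa2- CM also without Foxa2- CM replicate 3 (adjusted p of up to 0.171), while those of Plxna3 held in 2 and 1 of the 10 fits that left out 1 sample (adjusted p of up to 0.248). The endothelial markers Cdh5, Tek and Pecam1 were at 46.6 to 275 CPM in the 2 Flk1+ high samples and at 1.92 to 43.4 CPM in CM, and their part in the levels of Plxnd1 and Nrp2 was not tested.

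**Figure D5:**
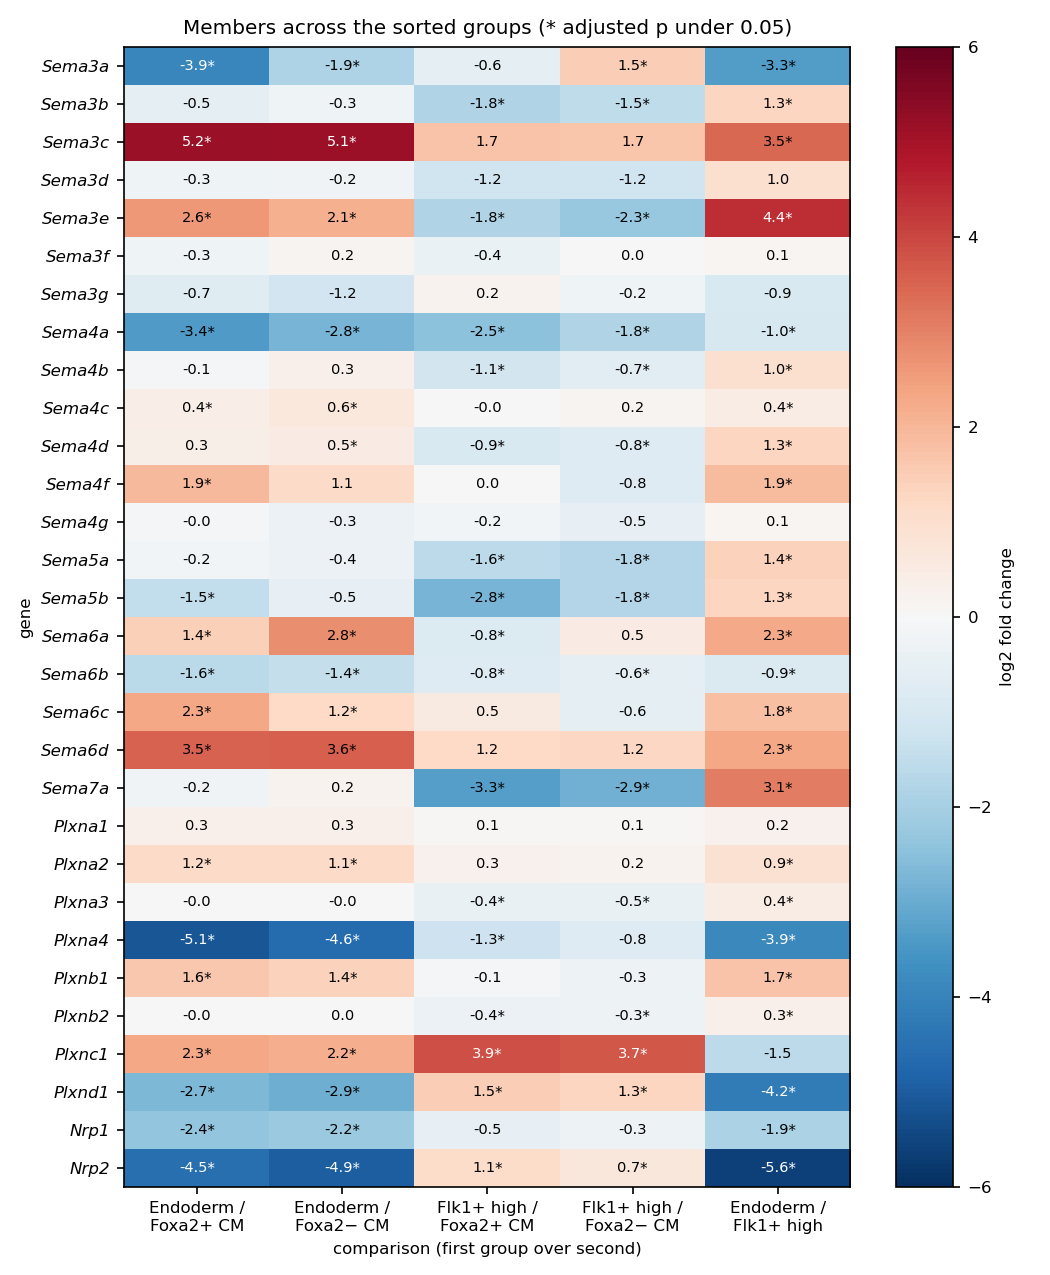
Log2 fold changes of the 30 members tested in the 5 comparisons with Endoderm or Flk1+ high (first group over second), colour from blue (lower) to red (higher), with an asterisk where the adjusted p was under 0.05. The neuropilins, Plxna4 and Plxnd1 are blue in Endoderm against CM, down to -5.11 for Plxna4 against Foxa2+ CM, and Plxnc1, Plxnd1 and Nrp2 are red in Flk1+ high against CM.

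Set directly against each other, Endoderm and Flk1+ high differed for most of the family. Of 30 members tested, 17 were higher in Endoderm and 7 lower, where 32.6% of all genes were called (16.4% higher and 16.2% lower). At least 2-fold apart were 12 and 5 members, against 19.1% of all genes. Among 20 ligands, 13 were higher in Endoderm and 3 lower, and the median log2 fold change of the ligands was 1.27. Sema3e (4.41 ± 0.40, adjusted p = 6.06e-05), Sema7a (3.08 ± 0.33, adjusted p = 0.000141) and Sema6a (2.28 ± 0.20, adjusted p = 5.36e-05) were higher in Endoderm. Among receptors Nrp2 (-5.62 ± 0.22, adjusted p = 1.1e-06), Plxnd1 (-4.20 ± 0.31, adjusted p = 2.3e-05), Plxna4 (-3.85 ± 0.36, adjusted p = 7.28e-05) and Nrp1 (-1.89 ± 0.39, adjusted p = 0.00502) were lower. Plxnc1 did not pass (-1.55 ± 0.53, adjusted p = 0.0517). With only the 4 samples of these groups fitted, 13 members were called, where 17.9% of all genes were called, and Nrp1 did not pass (adjusted p = 0.071).

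Ligands and receptors that are known to bind each other can be read side by side. Sema3e and Plxnd1 were at opposite ends in Endoderm and Flk1+ high: the mean of Sema3e was 67.4 CPM in Endoderm, 15.4 in Foxa2- CM, 11.1 in Foxa2+ CM and 3.12 in Flk1+ high, and that of Plxnd1 was 18.7, 141, 123 and 344 CPM. Foxa2- CM had the higher mean of the 2 CM groups for both genes, and neither passed the test between them. Sema7a and Plxnc1 also parted in Flk1+ high, where the ligand had a mean of 3.31 CPM and the receptor of 30.8 CPM, against 24.4 to 32.7 CPM and 2.06 to 2.25 CPM in CM.

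Other pairs were present in the same group. Sema3a was highest in Foxa2+ CM, where its receptor parts Nrp1 (374 ± 11.98 CPM) and Plxna4 (150 ± 25.2 CPM) were also found, and all 3 were low in Endoderm. Sema6a and Sema6d, ligands of class A plexins, and Plxna2 were each higher in Endoderm than in CM, as was Plxnb1, while its ligand Sema4d had a mean of 65.1 CPM in Endoderm against 51.6 and 45.7 CPM in CM. With 4 groups, such patterns are descriptions and were not tested.

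Beyond the family, 60 genes of semaphorin signalling were followed. In the CM comparison 5 of the 56 tested were higher and 4 lower, where 3.81% and 2.66% of all genes were. Met, the hepatocyte growth factor receptor that associates with class B plexins, was higher in Foxa2+ CM, where it averaged 29.6 CPM and in Foxa2- CM 13.8 CPM, a log2 difference of 1.11 ± 0.21 (adjusted p = 0.0215). So were the proteases Furin (0.33) and Adam10 (0.35), which cleave semaphorins, and Mical1 (0.43) and Arhgef11 (0.44), which act below plexins A and B. Dpysl4 (-1.22), Dpysl5 (-0.83 ± 0.09, adjusted p = 0.00348), Pak1 (-0.45) and Sh3bp1 (-0.32) were lower, Dpysl4 and Dpysl5 being of the collapsin response mediator family. Of the genes called here, only Dpysl5 kept its call in all 6 fits that left out 1 sample. The log2 fold changes kept their direction in these fits, running from 0.85 to 1.30 for Met, 0.37 to 0.47 for Mical1, 0.38 to 0.52 for Arhgef11 and -0.48 to -0.43 for Pak1.

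Larger differences were seen in the other comparisons. Kdr, a VEGF receptor that neuropilins assist and a gene used in the sort, was at 6.24 and 9.94 CPM in Endoderm and 353 to 440 CPM in CM, and since the gate fixed this difference it is not a finding. Vegfc, a ligand of Flt4 and of neuropilin 2, was at 2.70 and 2.09 CPM in Endoderm (log2 fold changes -4.76 ± 0.51 and -4.80 ± 0.51, adjusted p = 0.000141 and 0.000156). Cntn2, an adhesion molecule of axons, was at 59.7 and 35.6 CPM in Endoderm, against means of 1.37 and 2.39 CPM in CM (5.12 ± 0.44 and 4.33 ± 0.42, adjusted p = 3.89e-05 and 8.88e-05). In Flk1+ high, the VEGF receptors Flt1 (4.25 ± 0.62 and 3.53 ± 0.60, adjusted p = 0.00161 and 0.00348) and Flt4 (3.93 ± 0.52 and 3.82 ± 0.51, adjusted p = 0.00102 and 0.00117) were higher than in CM. L1cam, a co-receptor of Sema3a, was lower (-3.24 ± 0.13 and -2.93 ± 0.13, adjusted p = 1.24e-05 and 1.56e-05). Flt1 and L1cam were not particular to Flk1+ high. In Endoderm Flt1 was at 251 and 459.5 CPM and L1cam at 18.15 and 20.6 CPM, and each was called in the same direction against both CM groups. Of the 58 genes of the list tested in these comparisons, 31 and 23 were called in Endoderm against Foxa2+ CM and Foxa2- CM, where 35.0% and 30.1% of all genes were. In Flk1+ high the counts were 25 and 26, beside 22.8% and 21.6% of all genes. Between Endoderm and Flk1+ high 28 were called, beside 32.6% of all genes, and Nrcam was higher in Endoderm (6.32 ± 0.31, adjusted p = 2.69e-06).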

How the data were processed

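The authors extracted RNA from sorted cells, made poly(A) libraries with the TruSeq V2 kit (which does not mark strand) from 500 ng of RNA, and sequenced 50 nt single-end reads. Per the labels and the study's methods, reads were aligned to mm10 with STAR 2.5.0a, duplicates were removed with Picard, and reads were counted with HTSeq 0.6.0. The deposited values are whole-number counts per Ensembl gene, not normalized, and 72.2% to 80.5% of the uniquely aligned reads fell on genes. Removing duplicates without molecular identifiers can hold down the counts of genes with dense reads.

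The 31 members, their partner genes and the marker lists were chosen with earlier results of these data known. Symbols, positions and exon lengths came from GENCODE M21, matched on the identifier without its version (37607 of 38924 identifiers); the annotation release the authors used is not given in the sources used here. Counts were normalized by TMM and tested with the quasi-likelihood test of edgeR 4.0.16 in R 4.3.3, after its default expression filter, with Benjamini-Hochberg adjustment over all genes and calls at 0.05. Foxa2+ CM and Foxa2- CM were compared on the 6 CM samples, and the other comparisons used 1 model of all 10 samples. The scripts were tested on simulated counts. Standard errors follow from the test, as the size of a log2 fold change over the root of its F statistic. CPM values use the TMM library sizes of the 10 samples, and levels between genes are CPM per kb of exons, counted once where transcripts overlap.

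Values in every sample are given for members called between the CM groups, and for members called with at least a 2-fold difference in the same direction in Endoderm or Flk1+ high against both CM groups. Of the partners, those called in CM are named, and otherwise up to 3 per comparison with the largest change and a mean of at least 50 counts. Other members with values were chosen after these were seen. Alternatives were DESeq2 1.42.0, its size factors, other filters, a 2-fold limit, a replicate block, other sample sets and leaving out each sample. Replicates of a group differed by more than counting noise. Promoter windows are from RefSeq (GRCm38.p6).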

Additional observations from a re-analysis of the deposited data

How the results depend on the processing

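Direction was the same in all but 2 of the gene values recomputed: 2033 kept their side of the threshold, 170 lost it and 31 gained it. The exceptions were Sema5b in Endoderm against Foxa2- CM without Endoderm replicate 1 (0.0555, range when 1 sample was left out -1.46 to 0.0555) and Plxnd1 between the CM groups without Foxa2- CM replicate 3 (0.0559, range -0.34 to 0.0559), neither called in the fit reported. Fitting all 10 samples in 1 model gave 2 members and 3 partner genes called in CM, where 1.78% of all genes were called. A 2-fold limit gave 4 members and 2 partners in CM, 9 members and 11 partners in Flk1+ high against Foxa2- CM, and 12, 13, 13 and 13 partners in Endoderm against Foxa2+ CM, Endoderm against Foxa2- CM, Flk1+ high against Foxa2+ CM and Endoderm against Flk1+ high. In the same order, 3.01%, 11.6%, 18.7%, 17.0%, 11.4% and 19.1% of all genes passed that limit. Fitting only the 2 groups compared gave 13 members and 15 partners in Endoderm against Flk1+ high, where 17.9% of all genes were called, and 16 partners in Flk1+ high against Foxa2- CM. Leaving out 1 sample gave 4 to 9 members and 1 to 14 partners in CM, and 13 to 28 partners in Flk1+ high against Foxa2- CM. Without both CM samples numbered 3, chosen after seeing the data, 15 partners were called in CM, where 17.4% of all genes were called, and 17 in Flk1+ high against Foxa2- CM. The share of all genes called thus moved with the setting as well. Counts given here without that share are not read as results about these genes. The cause of these shifts was not tested, other than the fewer samples fitted or the narrower limit by construction.

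Same-numbered CM samples deviated together with r of 0.48, 0.0855 and 0.58, and differently numbered ones with r from -0.547 to 0.285. The labels do not say that the same number marks a shared culture, so the reported test did not pair the samples. These values do not settle whether some of them are pairs. With the replicate number as a block, 12 members and 18 partners were called in CM, where 16.7% of all genes were called, Sema3e among the members (adjusted p = 0.0266). In the other comparisons 18, 17, 15, 13 and 24 members were called, counts given without the share of all genes and not read as results about the family.

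Groups of 2 or 3 samples limit these tests, and at this depth Sema3c and Sema4f between the CM groups and Plxnb3 anywhere could not be tested. With the longest transcript as length, 83 of the 124 group levels per kb moved by more than the spread between replicates, so orders between genes hold for the stated length.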
